A study of Sus scrofa with 30 samples.

Results

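The collagen genes of the sow mammary gland were followed through 5 stages of a reproductive cycle. Members were all genes with a collagen chain symbol (COL, a number, A, a number), found by matching the transcript identifiers to the RefSeq gene table of the pig assembly Sscrofa11.1. This gave 35 genes, summed from 64 transcripts, of 26012 features and 61773 transcripts in the table. The other 8 collagen genes of that gene table, among them COL10A1, COL4A3 and COL4A4, were not analysed here, and neither was COL6A1.

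Collagens are triple helical proteins of the extracellular matrix. The fibrillar types, led by types I and III, form the tensile fibers of the stroma around ducts and alveoli. Type IV forms the sheet of the basement membrane under the epithelium and around vessels, type VI makes beaded filaments, the fibril associated types coat and space the fibers, and type XVII is a membrane protein of the hemidesmosomes that tie basal epithelial cells to the basement membrane. In the mammary gland the stroma makes way for secretory alveoli during pregnancy and lactation, and the matrix is remodeled after weaning.

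Mammary tissue came from 30 multiparous half-sibling sows, crosses of Danish Landrace and Yorkshire, with 6 sows at each stage. The stages were day 70 of gestation (mid-gestation, MG), day 110 of gestation (late gestation, LG), day 2 postpartum (early lactation, EL), day 10 postpartum (peak lactation, PL) and day 2 after weaning (W2). The groups were defined by stage alone, with no treatment or genotype compared. The samples titled EL carried a mid-gestation label in another field and the samples titled MG an early lactation label, and the titles were followed. By the study's methods the tissue was parenchyma cut from a single gland of each sow beneath the teat, and fat, skin and connective tissue were avoided. In such bulk tissue, fewer cells of a type and less RNA per cell cannot be told apart.

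In each stage 3 of the 6 samples were near copies of the mean of the other 3. The near copies differed from one another by a median of at most 1.85% over features, against 19.5% to 59.3% between the other samples of a stage. Between the mean of the near copies and the mean of the other 3 the median difference was at most 0.741%. So 3 samples per stage were counted (n = 3, 15 in all), named here by stage and title number. Deposited values, called FPKM and here units, summed to 997480 to 998888 in every sample, so they keep no read depth. The read totals that the study lists for its libraries were not used here. The peak lactation samples stood apart in milk protein genes: the 7 measured ones summed to 225334 to 407073 units at PL, highest in PL 2, against 104466 to 138449 at W2. Epithelial markers were present at all stages (EPCAM had stage means of 539.6 to 630.4 units), as were fibroblast markers, none of which was at 0 throughout a stage.

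Collagen transcripts took 0.255% ± 0.0329 (SD, n = 3) of all units at MG, 0.208% ± 0.0505 at LG, 0.147% ± 0.0236 at EL, 0.112% ± 0.0431 at PL and 0.294% ± 0.0517 at W2. The 5 genes with a mean of at least 100 units, COL3A1, COL4A1, COL1A1, COL4A2 and COL1A2, held 77.2% of the collagen signal over the 15 samples, while 5 genes stayed under a mean of 1 unit. The summed level was 775, 1598 and 968 units in PL 2, PL 3 and PL 6, and 2344, 3297 and 3159 units in W2 2, W2 3 and W2 6. All 3 samples at W2 lay above all 3 at PL, and PL 3 overlapped the EL samples, which held 1741, 1316 and 1352 units. After scaling by median ratios the share was 0.148% ± 0.0386 at PL, close to the 0.157% ± 0.0121 at EL, and 0.237% ± 0.0330 at W2, so the distance between PL and W2 was smaller. These sums over chosen members were given no test.

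**Figure D1:**
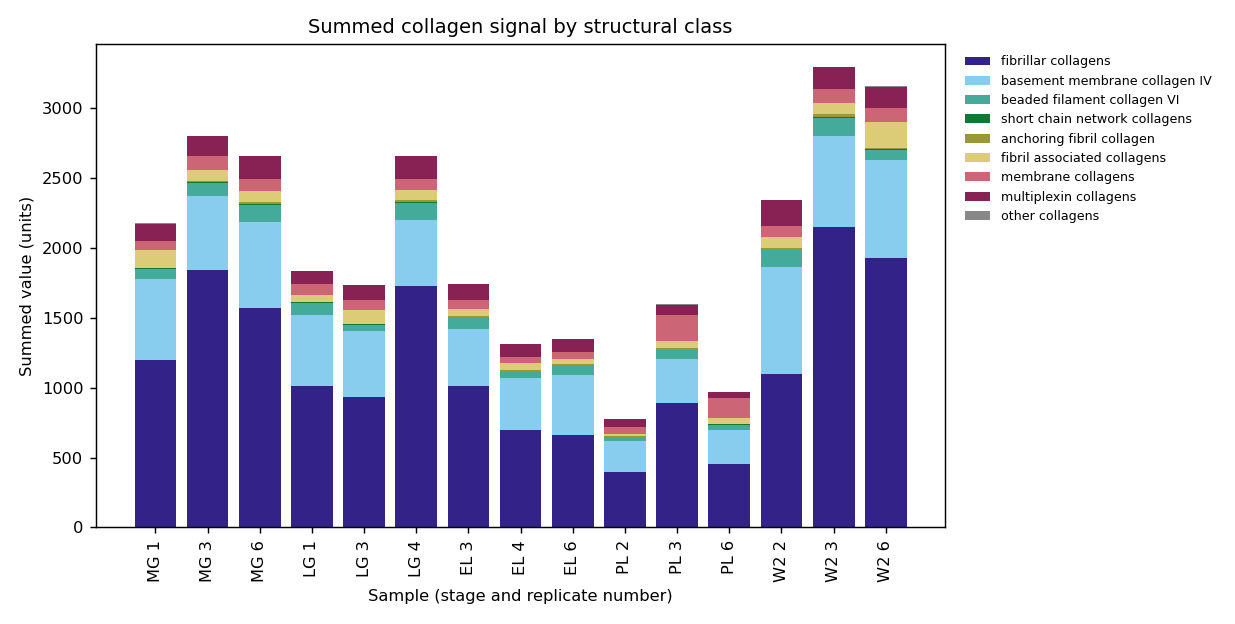
Summed values of the 35 collagen genes in each of the 15 counted samples (y axis, units), stacked by structural class, with samples ordered by stage on the x axis. Bars are lowest in PL 2 and PL 6 (775 and 968 units), and fibrillar collagens followed by type IV make up most of each bar.

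The shares of the largest classes in this signal overlapped between all stages. Fibrillar collagens held 60.0% ± 5.30 of it at MG and 51.3% ± 4.41 at PL, and type IV held 22.9% ± 3.78 at MG and 24.5% ± 4.52 at PL. Membrane collagens, almost all of it COL17A1, stood apart at PL: they held 10.9% ± 4.04 of the collagen signal there, with a lowest sample of 6.52%, against at most 4.10% in every sample of the other stages.

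By stage mean, 26 of the 35 genes were lowest at PL, 7 at EL and 2 at LG, and 22 were highest at W2. In 9 genes all 3 PL samples lay below the 12 samples of the other stages, which held for 11.3% of all features: COL2A1, COL4A1, COL5A3, COL9A1, COL9A3, COL11A1, COL15A1, COL18A1 and COL26A1. In 4 genes all 3 W2 samples lay above the other 12, against 3.65% of all features: COL4A1, COL4A2, COL11A1 and COL18A1. Over the 5 stages together, 13 collagen genes passed limma's F test (adjusted p below 0.05), where 18.3% of all features did. The smallest adjusted p values of this limma test were 0.000216 for COL4A1, 0.000216 for COL5A3 and 0.00064 for COL9A3.

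**Figure D2:**
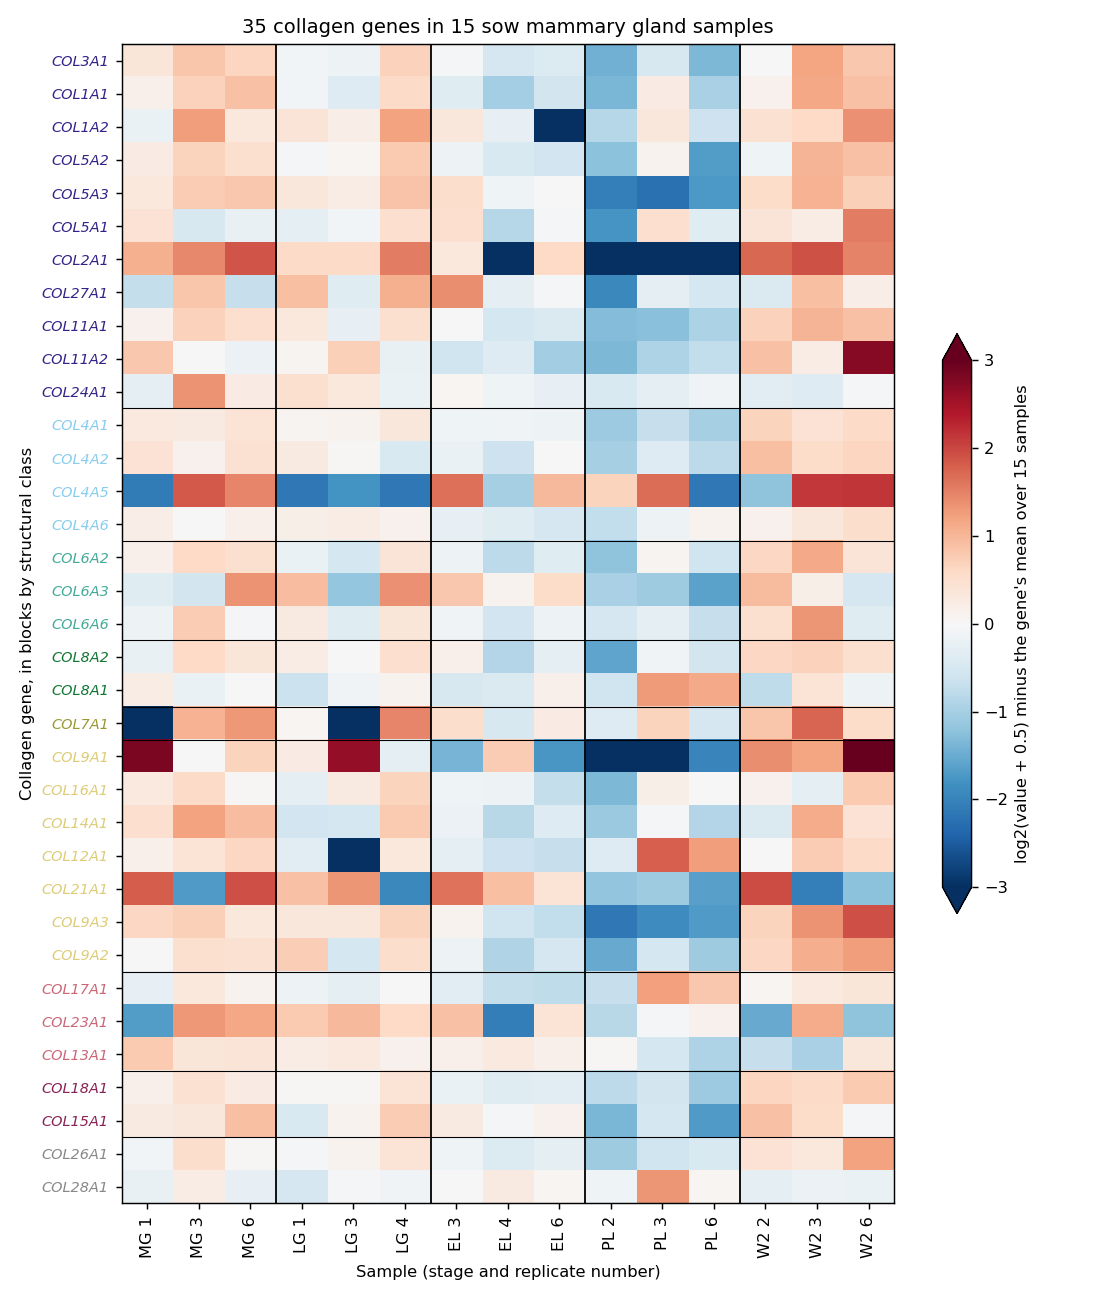
Level of each of the 35 collagen genes (rows, in blocks by structural class) in each of the 15 counted samples (columns, ordered by stage), as log2(value + 0.5) minus that gene's mean over the samples, with colors ending at 3 in either direction. The PL columns are blue for most fibrillar, type IV, type IX and multiplexin genes, and red in PL 3 and PL 6 for COL17A1, COL12A1 and COL8A1.

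Between gestation and early lactation the collagen genes did not pass the test, although most had lower values. In LG vs MG, 28 of 35 had a negative log2 fold change and the median was -0.20, against -0.11 over all features. None was called by limma and none reached an unadjusted p below 0.05, where 0.0115% of all features were called. In EL vs LG, 29 of 35 were negative, with a median of -0.36 against -0.22 over all features. None was called by limma there either, with 5 at an unadjusted p below 0.05, where 0.0154% of all features were called. Of the abundant chains, COL3A1 had means of 955 ± 155, 715 ± 253 and 504 ± 85.7 units at MG, LG and EL, and the LG samples overlapped both neighbors. COL4A1 held 326, 323 and 352 units at MG, 281, 285 and 339 at LG, and 243, 248 and 241 at EL, so that the EL samples lay below all others of these stages. With 3 samples against 3, an exact two-sided permutation test of a single gene cannot go below 0.1, and limma borrows its spread from all features.

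From early to peak lactation 3 collagen genes fell, where 4.62% of all features were called (3.85% lower). COL5A3, a chain of type V, a minor collagen built into type I fibers, fell by 2.14 on the log2 scale (SE 0.248, limma adjusted p = 0.00105). COL4A1, the more abundant of the main type IV chains, fell by 0.80 (SE 0.125, limma adjusted p = 0.00462). COL9A3, a chain of the fibril associated type IX, fell by 1.51 (SE 0.325, limma adjusted p = 0.0213). Another 10 genes had no overlap between the stages, all lower at PL (13 in all, where 15.8% of all features were), without passing the test. The count was 0 when the EL and PL samples were fitted alone, 5 (2 of them higher) without PL 2, and 5 without PL 3. What share of all features was called in these fits is not given here.

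Peak lactation compared with mid-gestation gave 15 collagen genes that fell and 0 that rose, where 25.2% of all features were called (23% lower). The median log2 fold change was -0.995 over the 35 genes and -0.57 over all features, and 26 of 35 lay below the latter. In 19 genes all PL samples were below all MG samples, as in 35.9% of all features. The calls covered 6 of 11 fibrillar genes, 2 of 4 type IV genes, 1 of 3 type VI genes, 4 of 7 fibril associated genes and both multiplexins. None of the membrane, short chain network or anchoring fibril collagens was called, and neither was COL26A1 or COL28A1. Those that fell by at least 2 on the log2 scale were COL2A1, COL9A1, COL5A3 and COL9A3, where 3.96% of all features passed both limits. The scaling of the samples moved this count: 8 genes were called after scaling by median ratios (1 higher, 7 lower) and 9 after quantile normalization (2 higher, 7 lower). What share of all features was called under these scalings is not given here.

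After weaning the collagens stood higher than at peak lactation. In W2 vs PL, 17 of 35 genes rose and 0 fell, where 32.8% of all features were called (30.4% higher, 2.48% lower). Of the 17, 7 had a log2 fold change of at least 2, against 5.22% of all features. The median was 1.30 over the collagens and 0.68 over all features, 26 of 35 genes lay above the latter, and 18 genes had all W2 samples above all PL samples (40.6% of all features did). COL28A1 alone had them all below (3.37% of all features). Scaling by median ratios took the median of all features to 0.09 and that of the collagens to 0.68, with 12 genes called (11 higher, 1 lower), and quantile normalization gave 12 (10 higher, 2 lower). Shares of all features called under these scalings are not given, so the 32.8% is no background for these counts. PL vs MG and W2 vs PL share the PL samples and are not independent of each other.

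**Figure D3:**
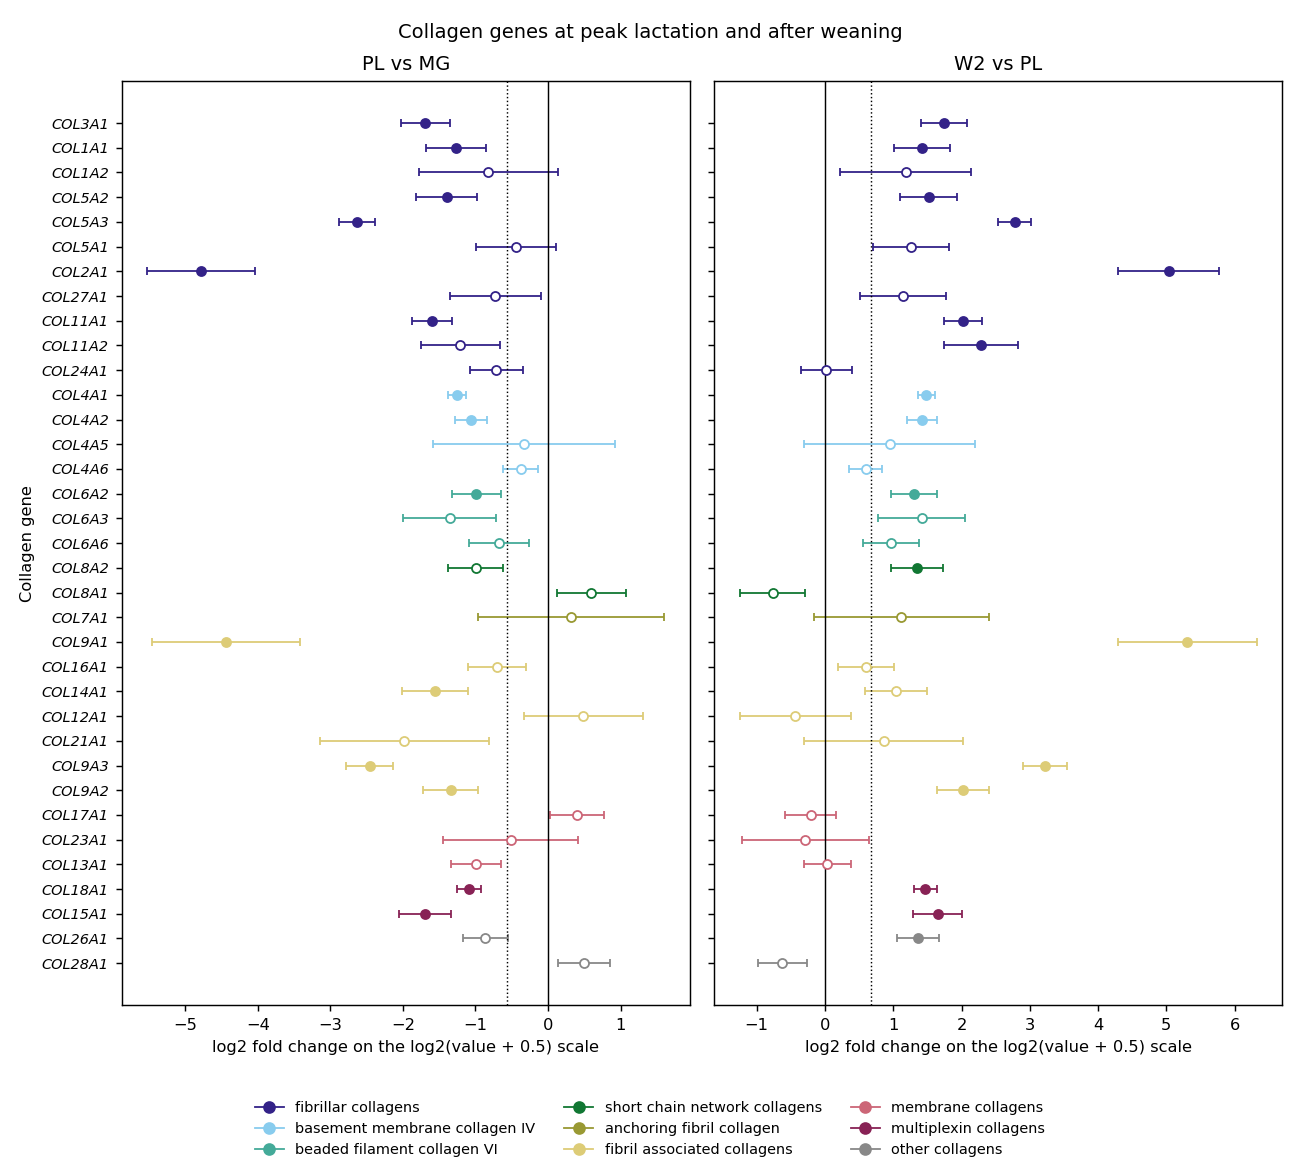
Log2 fold change (x axis, on the log2(value + 0.5) scale) of each collagen gene in PL vs MG and in W2 vs PL, with the limma standard error as a bar, filled where the adjusted p was below 0.05. The dotted line is the median of all 26012 features, -0.57 on the left and 0.68 on the right, and COL2A1 and COL9A1 lie farthest from it.

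The fibrillar collagens of the stroma gave 7 calls of 11 in W2 vs PL, all of them higher, where 30.4% of all features were called higher. COL3A1, the reticular fiber chain and the highest collagen of the gland, held 229, 445 and 245 units in PL 2, PL 3 and PL 6 and 614, 1402 and 1084 in W2 2, W2 3 and W2 6. The stages did not overlap, and it rose by 1.74 (SE 0.335, limma adjusted p = 0.00261). COL1A1, the main chain of type I, held 67.0, 207 and 89.3 units at PL and 191, 390 and 323 at W2. Here PL 3 lay above W2 2, so the groups overlapped, with a log2 fold change of 1.42 (SE 0.411, limma adjusted p = 0.0198). That call was lost under all 3 other scalings, with adjusted p of 0.112 to 0.222, and without PL 2, PL 6, W2 3 or W2 6 in turn, with limma adjusted p of 0.0563 to 0.0844. The partner chain COL1A2 held 78.6, 181 and 92.9 units at PL and 197, 216 and 367 at W2, a log2 fold change of 1.18 (SE 0.960, limma adjusted p = 0.365) that did not pass. Its standard error was large, and EL 6 held 5.74 units where EL 3 and EL 4 held 179.8 and 119.9, while COL1A1 in EL 6 was 119.6 units.

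Of type V and the small fibril formers, COL5A3 moved furthest. It held 3.67, 3.14 and 4.71 units at PL and 24.9, 34.8 and 27.9 at W2, with 15.3 to 31.0 units in the 9 samples of the other stages. All PL samples were thus far below every other sample, and COL5A3 rose by 2.78 (SE 0.248, limma adjusted p = 5.09e-05). Its most abundant transcript, XM_021081436.1, which made 65.4% of the gene's units, was listed at 0 in PL 2, PL 3 and PL 6 and at 12.1 to 27.1 units in all 12 other samples. What remained at PL came from other transcripts, mainly the noncoding model XR_002341044.1 in PL 2 and PL 6 (2.43 and 4.71 units) and NM_001105288.1 in PL 3 (2.97 units). COL5A2 rose by 1.52 (SE 0.420, limma adjusted p = 0.0161) with overlapping groups, since PL 3 held 32.9 units and W2 2 held 27.9, and COL5A1 had a log2 fold change of 1.26 that did not pass (limma adjusted p = 0.0975). COL24A1 (0.02, limma adjusted p = 0.989) and COL27A1 (1.14, limma adjusted p = 0.184), fibrillar types of low level here, were not called.

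The collagens best known from cartilage gave 6 of the 7 rises of at least 2 on the log2 scale, the other being COL5A3. Type II is the main fibril of cartilage, type IX decorates it and type XI sits inside it, and these 6 genes, COL2A1, COL9A1, COL9A2, COL9A3, COL11A1 and COL11A2, all rose in W2 vs PL. Reading them as a group was chosen after their values were seen. Their summed level was 1.10, 2.43 and 4.12 units at PL, 55.0, 58.9 and 156 at W2, 34.8 to 89.2 at MG, 28.9 to 75.3 at LG and 13.9 to 20.3 at EL. Every PL sample was below every other sample, also when COL9A1 was left out of the sum (1.05 to 2.21 units at PL against 4.47 or more elsewhere).

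COL2A1 was listed at 0 in PL 2 and held 0.0281 and 0.0235 units in PL 3 and PL 6, against 16.6, 19.0 and 14.1 units at W2. It held 10.3, 13.4 and 18.6 units at MG and 7.26, 7.26 and 14.5 at LG, but EL 4 held only 0.0783 units beside 5.97 and 7.33 in EL 3 and EL 6. COL2A1 rose by 5.03 (SE 0.743, limma adjusted p = 0.000603), a size set largely by the pseudocount, as it was 7.15 with a pseudocount of 0.1 and 4.10 with 1. COL9A3 held 0.437, 0.632 and 0.789 units at PL and 6.15, 10.0 and 15.4 at W2, with no overlap, and rose by 3.22 (SE 0.325, limma adjusted p = 9.26e-05). COL9A2 rose by 2.02 (SE 0.382, limma adjusted p = 0.00239) and COL11A1 by 2.02 (SE 0.276, limma adjusted p = 0.000411), both from under 1 unit at PL to means of 3.71 and 3.11 units at W2. COL11A2 rose by 2.29 (SE 0.545, limma adjusted p = 0.00782), but its W2 6 value of 9.06 units came almost wholly from 1 transcript (8.95 units) that held at most 0.122 units elsewhere, and the call was lost when the gene's highest transcript stood for the gene (1.00, limma adjusted p = 0.168) and under quantile normalization (0.0833).

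COL9A1 rose by 5.31 (SE 1.02, limma adjusted p = 0.00254). Its order with COL2A1 depended on the pseudocount, since COL9A1 had the larger value with 0.5 and with 1 (4.68) and the smaller one with 0.1 (6.37). Its level was 0.0540, 0.227 and 1.92 units at PL and 24.6, 21.2 and 109.9 at W2, and the stages did not overlap. Samples differed widely elsewhere too, with 67.8, 8.97 and 14.8 units at MG, 10.8, 59.3 and 7.43 at LG and 3.15, 15.9 and 2.38 at EL. The transcript XM_021089350.1 carried 94.4% of the gene's units. Taken alone, it was listed at 0 in PL 2 and PL 3, held 0.0684 units in PL 6, and held 24.5, 18.7 and 108.8 units at W2, a rise of 6.17 (SE 1.20, limma adjusted p = 0.00946 over 61773 transcripts, of which 7.13% were called). The other transcript, XM_003121273.4, held 0.0540, 0.227 and 1.85 units at PL and 0.127, 2.43 and 1.14 at W2, and these overlapped (0.56, limma adjusted p = 0.771). So nearly all of the difference in COL9A1 lay in 1 transcript model, which was also at 0.366 and 0.136 units in EL 3 and EL 6 but 15.8 in EL 4.

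Of the cartilage markers listed beforehand, ACAN, MATN1, COMP and HAPLN1 had no value under these symbols. Of the 4 measured, SOX9 and CNMD rose in W2 vs PL (1.78, limma adjusted p = 0.01 and 2.11, limma adjusted p = 0.0437), and MATN3 and CHAD did not pass. These 4 markers summed to 9.47 to 19.5 units at PL, 43.7 to 51.3 at W2 and 17.5 to 44.5 at the other stages, and none was at 0 throughout a stage. SOX9, a transcription factor also made by mammary epithelium, gave most of that sum, with a PL mean of 11.3 and a W2 mean of 38.4 units. The part of such cells in the collagen values was not tested.

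**Figure D4:**
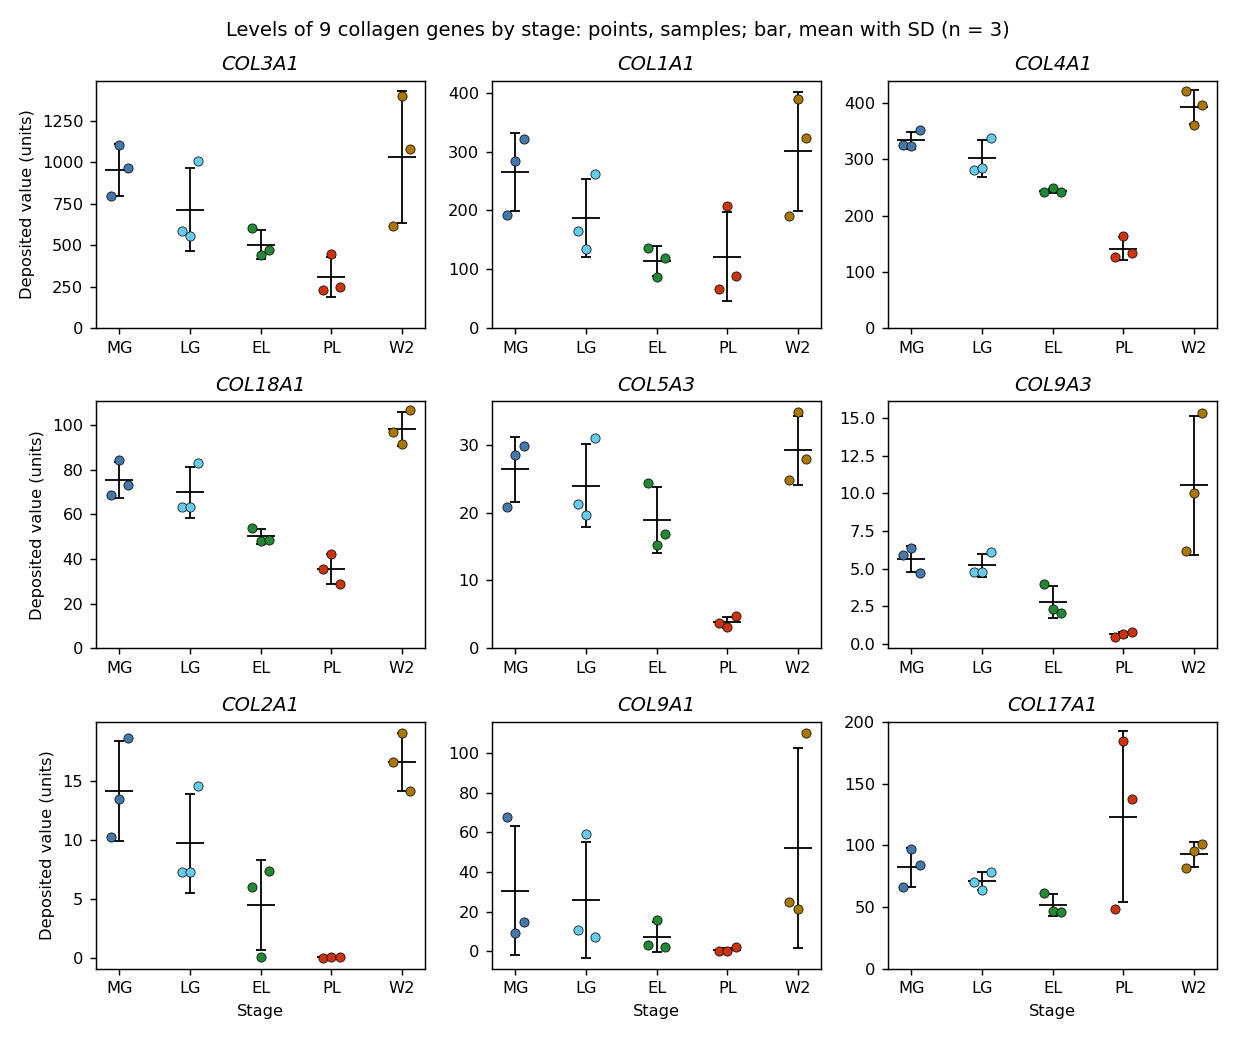
Levels (y axis, units, linear) of 9 collagen genes at the 5 stages (x axis), with a point per counted sample and the mean with SD (n = 3). COL5A3, COL9A3 and COL2A1 lie near the floor in all 3 PL samples, COL4A1 and COL18A1 step down stage by stage and are highest at W2, and COL17A1 is spread from 48.2 to 184.5 units at PL.

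Of the type IV collagens of the basement membrane, both main chains rose. COL4A1 held 126, 164 and 133 units at PL and 422, 361 and 397 at W2, so the W2 mean was 2.79 times the PL mean, and it rose by 1.49 (SE 0.125, limma adjusted p = 3.87e-05). COL4A2 held 92.0, 142 and 107 units at PL and 344, 272 and 289.7 at W2, and rose by 1.42 (SE 0.225, limma adjusted p = 0.000855). Both passed without any overlap, but under median ratio scaling COL4A2 came to 0.68 (limma adjusted p = 0.0654). The genes lie side by side on chromosome 11 (COL4A1 at chr11:76858332-76997409, COL4A2 at chr11:76996885-77161617 in Sscrofa11.1) and share 525 bases, where a library kit that keeps no strand cannot tell their reads apart. The COL4A1 to COL4A2 ratio was 1.25 ± 0.108 at PL and 1.31 ± 0.0735 at W2, a difference within the spread of the samples. The minor chains did not pass: COL4A6 had a log2 fold change of 0.59 (limma adjusted p = 0.0784), and COL4A5 varied widely within stages, from 0 to 9.16 units over all samples (0.95, limma adjusted p = 0.593).

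Both multiplexins, collagens of basement membrane zones, rose. COL18A1, whose tail is released as endostatin, held 35.6, 42.3 and 28.8 units at PL and 96.9, 91.5 and 106.7 at W2, and rose by 1.47 (SE 0.166, limma adjusted p = 0.000156). COL15A1 held 17.3, 31.3 and 13.8 units at PL and 84.5, 66.5 and 43.5 at W2, and rose by 1.65 (SE 0.359, limma adjusted p = 0.00493), though not under median ratio scaling (limma adjusted p = 0.114) or quantile normalization (0.0949). Neither gene overlapped between the stages.

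Of the type VI chains, COL6A2 rose by 1.30 (SE 0.334, limma adjusted p = 0.0114), from 20.2, 50.1 and 30.9 units at PL to 73.5, 105 and 62.1 at W2. That call was lost under each of the 3 other scalings (limma adjusted p 0.0742 to 0.178). COL6A3 held 11.2, 10.6 and 7.13 units at PL and 44.1, 25.5 and 15.8 at W2, which did not overlap, yet its log2 fold change of 1.42 did not pass (SE 0.638, limma adjusted p = 0.107). COL6A6, of which all samples held at most 1.51 units, did not pass either (0.97, limma adjusted p = 0.0909). COL8A2, a short chain network collagen, rose by 1.35 (SE 0.381, limma adjusted p = 0.0179), a call lost under each other scaling (0.0833 to 0.139), and COL26A1 rose by 1.36 (SE 0.309, limma adjusted p = 0.00614) at a level of at most 1.91 units.

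The remaining fibril associated genes were not called in W2 vs PL. COL14A1 had a log2 fold change of 1.04 (limma adjusted p = 0.0981) after having fallen by 1.56 in PL vs MG (limma adjusted p = 0.027), COL16A1 had 0.60 and COL21A1 0.86. COL7A1, the anchoring fibril collagen beneath basal epithelium, held 4.08, 9.07 and 3.74 units at PL and 10.1, 19.8 and 8.27 at W2 (1.12, SE 1.28, limma adjusted p = 0.532). Its standard error was large, and MG 1 and LG 3 held 0.0157 and 0.0304 units, where the other samples of those stages held 5.71 to 16.0.

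A few collagens had a negative log2 fold change in W2 vs PL, and none of these was called with the 15 counted samples and the deposited values. COL17A1, the hemidesmosome collagen, held 48.2, 184.5 and 137.7 units in PL 2, PL 3 and PL 6 and 81.7, 95.7 and 101 at W2. PL 3 and PL 6 lay above every other sample and PL 2 below the W2 samples, so the difference did not pass (log2 fold change -0.21, SE 0.372, limma adjusted p = 0.7). It was -0.78 (limma adjusted p = 0.0138) without PL 2, -0.95 (limma adjusted p = 0.0311) with all samples under median ratio scaling, and 0.18 without PL 3. COL12A1, a fibril associated collagen of tissues under tension singled out after its values were seen, held 4.44, 21.7 and 14.9 units at PL and 5.97, 10.5 and 9.11 at W2 (-0.43, limma adjusted p = 0.719). COL8A1 and COL28A1, also singled out afterwards, had log2 fold changes of -0.77 and -0.62 that did not pass, with 2.23 and 2.01 units of COL8A1 in PL 3 and PL 6 against 0.252 in PL 2. The membrane collagens COL13A1 (0.03) and COL23A1 (-0.29) were not called.

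Ratios within a sample do not change when all its values are scaled by the same factor, though quantile normalization can change them. The pairs given here were chosen after the levels were seen, so they carry no test. The COL17A1 to COL4A1 ratio was 0.383, 1.13 and 1.04 in PL 2, PL 3 and PL 6, and 0.190 to 0.300 in the other 12 samples. All 3 PL samples were above them, PL 2 included, although its COL17A1 level was not. The COL12A1 to COL3A1 ratio was 0.0194, 0.0488 and 0.0607 at PL and at most 0.00978 elsewhere, again with no overlap. The COL5A3 to COL5A2 ratio ran the opposite way, at 0.289, 0.0956 and 0.508 at PL, where the other samples held 0.498 to 0.895 and only PL 6 reached into that range.

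**Figure D5:**
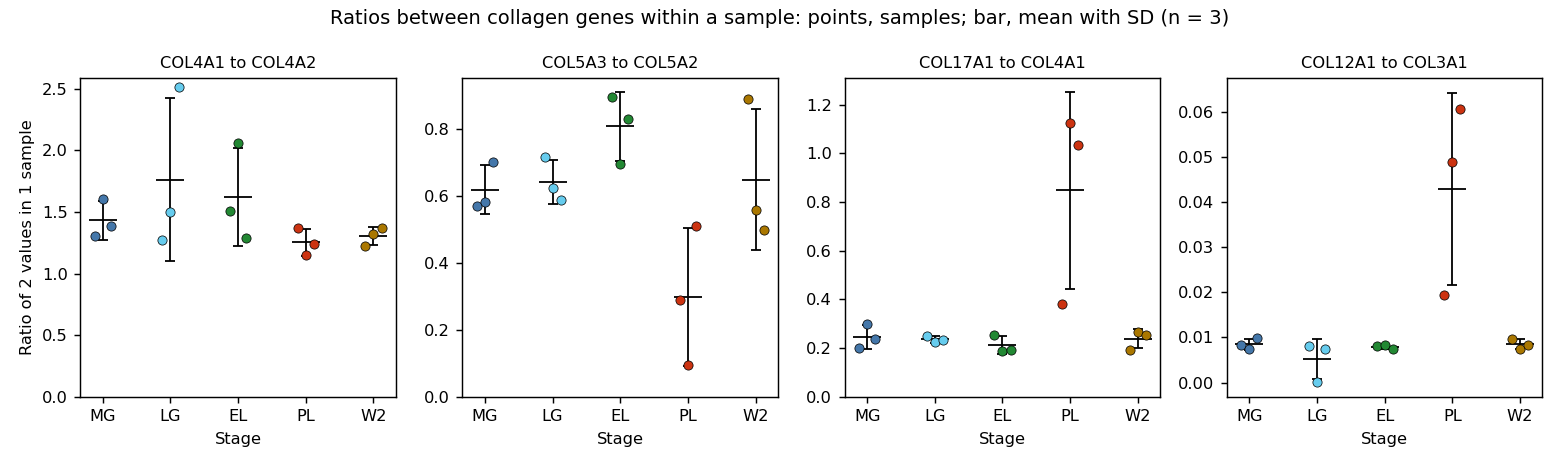
Ratio of the values of 2 collagen genes in the same sample (y axis) at the 5 stages (x axis), with a point per counted sample and the mean with SD (n = 3). COL4A1 to COL4A2 is alike at PL and W2, COL5A3 to COL5A2 is low at PL, and COL17A1 to COL4A1 and COL12A1 to COL3A1 are higher in all 3 PL samples than in the other 12.

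The sums of fibroblast and endothelial markers were higher at W2 than at PL, as the collagen sum was. Of 8 fibroblast markers, 5 rose in W2 vs PL, where 30.4% of all features did (VIM by 1.91, FAP by 2.26, with PDGFRA, PDGFRB and S100A4), and their sum was 114 to 254 units at PL and 428 to 529 at W2, without overlap. Of 5 endothelial markers 2 rose, KDR by 1.24 and VWF by 0.72, where 30.4% of all features did. The median log2 fold change of the 5 was 0.72, close to the 0.68 of all features. Their sum was 73.2 to 111 units at PL and 122 to 144 at W2, also without overlap. The 7 myoepithelial and smooth muscle markers gave no call in W2 vs PL by limma, with 1 at an unadjusted p below 0.05, and summed to 1173 units in PL 2 but 3235 and 2974 in PL 3 and PL 6, against 2017 to 2261 at W2. Of these 7, 3 had a positive and 4 a negative log2 fold change in W2 vs PL. KRT5, a keratin of the same basal cells as COL17A1, singled out from these markers, held 57.3, 273 and 304.6 units in PL 2, PL 3 and PL 6. The sum of the 6 leukocyte markers was split the same way over the PL samples, with 25.2, 257 and 310.4 units, almost all of it CD14 in the latter samples. In W2 vs PL 3 of these 6 rose and 1 fell by limma, where 30.4% of all features rose and 2.48% fell. Of the milk protein genes 6 of 7 fell in W2 vs PL, where 2.48% of all features fell. The part of cell make-up in the collagen values was not tested.

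Genes that build and process collagen had smaller median differences than the chains. Of 18 genes of collagen synthesis and folding, 7 rose and 1 fell in W2 vs PL, where 30.4% of all features rose and 2.48% fell, with a median log2 fold change of 0.59, below the 0.68 of all features. Those that rose most were the prolyl 3-hydroxylases P3H3 (2.60, limma adjusted p = 0.0143) and P3H2 (1.59, limma adjusted p = 0.00309) and the lysyl hydroxylase PLOD1 (1.30, limma adjusted p = 0.00576). The collagen chaperone SERPINH1 rose by 0.83 (limma adjusted p = 0.0243), and PPIB, a prolyl isomerase of the endoplasmic reticulum, fell by 0.71 (limma adjusted p = 0.013). Of 12 genes of procollagen processing and crosslinking 3 rose (30.4% of all features did), the propeptidases ADAMTS3 (1.30) and ADAMTS2 (1.22) and the transglutaminase TGM2 (0.74), while LOX and LOXL1 to LOXL4 were not called. Of 7 collagen receptors 1 rose, the integrin chain ITGB1 (0.96, limma adjusted p = 0.0075), where 30.4% of all features rose.

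The matrix partners of the collagens had medians nearer to theirs. Of 15 laminins and basement membrane partners 5 rose and 0 fell, a share near the 30.4% of all features that rose, with a median of 1.13, led by LAMC3 (2.63, limma adjusted p = 0.000145), LAMB1 (2.04, limma adjusted p = 0.0171) and the nidogen NID2 (1.90, limma adjusted p = 0.000142), which links laminin to type IV collagen. Of 20 fibril binding and other stromal genes 8 rose and 0 fell, against the same 30.4%, with a median of 1.05, led by the proteoglycans VCAN (2.59, limma adjusted p = 0.000427), FMOD (2.51, limma adjusted p = 0.00791) and LUM (2.03, limma adjusted p = 0.000736). FMOD and LUM bind the surface of collagen fibers, and FMOD held 54.0, 64.4 and 25.8 units at PL and 262, 339 and 193 at W2, without overlap.

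On day 2 after weaning, collagen levels were not told apart from those of mid-gestation. In W2 vs MG no collagen gene was called by limma, with 3 at an unadjusted p below 0.05, where 0.0115% of all features were called. The median log2 fold change was 0.23 over the collagens and 0.10 over all features, and 26 of 35 were positive. In 5 genes every W2 sample lay above every MG sample, as in 8.2% of all features: COL4A1, COL4A2, COL9A2, COL11A1 and COL18A1, with log2 fold changes of 0.23 to 0.67 (limma adjusted p = 1 for each). COL13A1 alone lay below in every one (-0.96, limma adjusted p = 1), as 2.21% of all features did. COL3A1 had means of 955 ± 155 units at MG and 1033 ± 397 at W2, a difference well within the spread of the samples.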

How the data were processed

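RNA of mammary parenchyma, dissected away from fat, skin and connective tissue, was sequenced from 30 sows, 6 at each of 5 stages. Per the study's methods, the authors' steps were quality control (FastQC), adapter and quality trimming (Trimmomatic), HISAT2 alignment against Sscrofa11.1 and StringTie assembly, and a transcript was retained if its FPKM reached 0.5 in 1 stage or more. The deposited FPKM values of 61773 transcripts sum to nearly the same total in every sample, as TPM values would, so their scale was taken as relative and they keep no depth. The study's list of reads per library was not used here. The authors name RUVs normalization, and whether it entered these values was not given in the sources used here. The library kit keeps no strand, and no batch is named, so no within-batch values were possible.

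Identifiers were matched to the RefSeq gene table of Sscrofa11.1 (32396 as accessions, 279 as symbols), and transcripts were summed to 14951 reference genes and 11061 assembled loci. Members, gene lists and tests were chosen with earlier results of these data known. Per stage, 3 samples were near copies of an average of the remaining 3 (differences below the spread between samples) and were not counted. The labels do not tie samples to litters or days, so p-values measure the spread between these samples.

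The 15 counted samples entered 1 fit in limma 3.58.1 (R 4.3.3) on log2(value + 0.5) with a variance trend over the 26012 features, without a filter, with 5 stages as groups and Benjamini-Hochberg adjustment over all features. A feature was called at an adjusted p below 0.05, in either direction. Fold changes are on this log2 scale and understate changes of low genes. The scripts were first tested on simulated data with known answers.

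Genes named are the highest of each class, COL1A1, COL1A2, COL3A1, COL4A1, COL4A2, COL6A2, COL6A3, COL2A1, COL17A1, COL9A1 with its main transcript, the 5 largest called changes per comparison and direction, the 3 smallest p in the F test, and, per matrix list, the 3 largest called changes in W2 vs PL. Other collagens are given so that every member is accounted for. Tried besides were other pseudocounts, a filter, 3 other scalings, no variance trend, the compared stages alone, the title number as a replicate block, all 6 samples, the highest transcript per gene, and leaving out each sample. Replicate numbers did not pair the samples: 19 pairs of samples with the same number in different stages had a mean correlation of 0.0133 in their deviations (-0.139 to 0.171). Sequences were not used here.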

Additional observations from a re-analysis of the deposited data

How the results depend on the processing

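The count of collagen genes called depended on which samples were counted and how they were scaled. Shares of all features called under these other settings are not given here. The counts below therefore do not compare collagens with other features. Taking all 6 deposited samples per stage, near copies included, raised it to 5 (LG vs MG), 15 (EL vs LG), 15 (PL vs EL), 27 (W2 vs PL), 23 (PL vs MG), 7 (W2 vs MG) and 32 (the 5 stages), and the near copies' mean as a further sample gave 11 in PL vs EL and 22 over the 5 stages. These gains come from samples that add no spread of their own. Fitting the compared stages alone gave 0 in PL vs EL, 9 in W2 vs PL and 8 in PL vs MG, with fewer samples to estimate the spread. With the title number as a replicate block the counts were 1 in PL vs EL, 9 in PL vs MG and 8 over the 5 stages, against 17 as before in W2 vs PL. The numbers did not pair the samples on average, and the reason for the lost calls was not tested. Other scalings gave fewer calls in PL vs MG (9 by quantiles, 8 by median ratios, 9 without the 20 highest features) and over the 5 stages (6, 6 and 8). Leaving out 1 sample at a time gave 2 to 5 genes in PL vs EL, 13 to 18 in W2 vs PL, 10 to 16 in PL vs MG and 10 to 13 over the 5 stages. The collagen share without the 20 highest features was 0.354% at MG, 0.307% at LG, 0.241% at EL, 0.211% at PL and 0.394% at W2, and by median ratios 0.219% at MG, 0.197% at LG, 0.157% at EL, 0.148% at PL and 0.237% at W2, where PL and EL lay within the spread of the samples.

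Among the genes named, the sign in W2 vs PL turned for COL17A1 without PL replicate 3 (0.18, against -0.78 without PL replicate 2) and for COL7A1 with its highest transcript alone (-0.35), neither past the threshold. Over these genes and all alternatives run, 449 values kept sign and call, 29 kept the sign but lost the call, and 6 gained one. The causes were not tested. The deposited values keep no read counts, so no detection limit was computed for values near 0.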
